A study of Mus musculus with 2 samples.

Results

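The miR-148 and miR-152 family of the mouse consists of 3 miRNA genes, Mir148a, Mir148b and Mir152, and was described here in the young hippocampus. The members were chosen by name, as the rows for these 3 genes among the 2202 miRNA genes of the deposited count tables, and all 3 had counts. The tissue was labelled as layer of hippocampus and came from male B6CASTF1/J mice, a cross of C57BL/6J and CAST/EiJ, at 14 days of age. There was 1 group with 2 biological replicates, no treatment and no second condition, and the label of each replicate named 3 males. Whether their tissue was pooled is not given in the sources used here, and the donor identifier is 1 and the same in both labels, so that part of the spread between these samples may be technical.

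A miRNA gene is transcribed into a hairpin whose arms are cut out as mature miRNAs of about the same length. A mature miRNA loaded into an Argonaute protein pairs through its seed, bases 2 to 8, with messenger RNAs and lowers their output, so genes with the same seed form a family with overlapping targets. The miR-148 and miR-152 family is best known outside the brain. In human cells its members repress the DNA methyltransferase DNMT1, and miR-148a of human and mouse liver represses the receptor for low-density lipoprotein. Mir148b and Mir152 lie in Copz1 and Copz2, paralogous genes for the zeta subunit of the coatomer that coats vesicles between Golgi and endoplasmic reticulum.

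The 3p arms, which define the family, are given from RefSeq (GRCm38.p6) with the seed in capitals, since the seed is what the members share.
mmu-miR-148b-3p: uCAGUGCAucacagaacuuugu
mmu-miR-148a-3p: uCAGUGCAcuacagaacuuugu
mmu-miR-152-3p: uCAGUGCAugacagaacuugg
These were the only 3 of 1738 mature arms in the RefSeq table (0.173%) with CAGUGCA at bases 2 to 8. Those arms came from 1058 genes, fewer than the 2202 counted, so a carrier outside the RefSeq table would not be seen. Counted from 1 at the 5′ end of miR-148a-3p, miR-148b-3p differed by C9U and U10C, at 2 of 22 positions. Over 21 positions, miR-152-3p differed from miR-148a-3p by C9U, U10G and U20G. From miR-148b-3p it differed by C10G and U20G. The differences thus lay just behind the seed and near the 3′ end.

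The 5p arms differed more, and are shown with bases 2 to 8 in capitals.
mmu-miR-148b-5p: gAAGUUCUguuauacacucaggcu
mmu-miR-148a-5p: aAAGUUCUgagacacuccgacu
mmu-miR-152-5p: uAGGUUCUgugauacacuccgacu
Here Mir148a and Mir148b had the same seed, AAGUUCU, which no other arm of the table had. Mir152 had AGGUUCU, which was its alone in that table. Counts were made per gene and not per arm, so that which arm gave the reads of a member cannot be told apart.

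In mm10, Mir148b (ENSMUSG00000065560.1) spans positions 103285125 to 103285221 of chromosome 15 on the plus strand. It lies in intron 1 of Copz1, and was intronic in all 4 Copz1 transcripts that span it. Mir152 (ENSMUSG00000065515.1) spans 96850393 to 96850465 of chromosome 11 on the plus strand, in intron 1 of Copz2 in all 3 transcripts that span it. Mir148a (ENSMUSG00000065505.1) spans 51269812 to 51269910 of chromosome 6 on the minus strand. No annotated gene of another type contains the whole of Mir148a, and genes that overlap it in part were not searched for. Among coding or long non-coding genes that do not overlap it, the nearest was Gm32479, a long intergenic non-coding RNA 13.6 kb away.

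The hairpins are printed 5′ to 3′ with the 5p and 3p arms in capitals, to show where the mature miRNAs sit.
Mir148b: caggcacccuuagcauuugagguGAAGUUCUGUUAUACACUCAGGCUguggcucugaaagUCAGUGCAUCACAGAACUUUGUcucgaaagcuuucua
Mir148a: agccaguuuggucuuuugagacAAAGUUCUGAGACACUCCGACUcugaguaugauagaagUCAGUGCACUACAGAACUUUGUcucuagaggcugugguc
Mir152: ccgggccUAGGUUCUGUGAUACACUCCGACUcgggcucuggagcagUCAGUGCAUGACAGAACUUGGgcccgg
Mir148b and Mir148a have hairpins of 97 and 99 bases with G and C at 45.4% and 45.5%, and Mir152 has one of 73 bases at 61.6%. The arms are 13, 16 and 15 bases apart in Mir148b, Mir148a and Mir152. The folding energy predicted by ViennaRNA was -30.9 kcal/mol for Mir148b, -41.0 kcal/mol for Mir148a and -43.5 kcal/mol for the shorter Mir152 hairpin. In these predicted folds 17, 19 and 19 bases of the 3p arm were paired in Mir148b, Mir148a and Mir152.

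**Figure D1:**
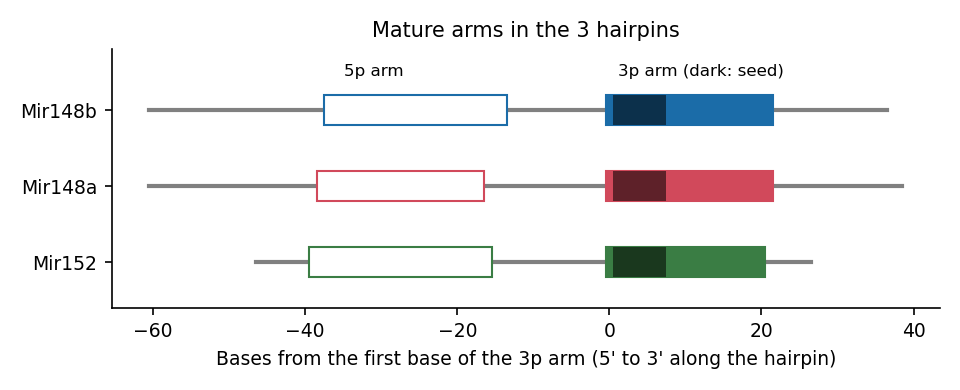
Map of the 3 hairpins, drawn to scale in bases from the first base of the 3p arm, with the 5p arm as an open box, the 3p arm as a filled box and the seed darkened. The arms lie 13 to 16 bases apart in the 3 hairpins, and the hairpin of Mir152 is the shortest at 73 bases.

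Near-identical copies can lose reads in a count table, because reads that map to several places were given to no gene. The longest stretch that Mir148b and Mir148a share with any other of the 2202 hairpins, in either orientation, was 15 bases, and they share it with each other. For Mir152 it was 13 bases, with Mir3473f. In the 141767 annotated transcripts, each of the 6 mature arms matched its own gene alone, on the sense strand, and none on the antisense strand. The genome outside transcripts was not searched. Counts of the members were the same in the column for the gene's strand and in the column that ignores strand, and 0 on the opposite strand. That speaks of antisense reads alone, and reads from a host transcript on the same strand, Copz1 for Mir148b or Copz2 for Mir152, cannot be told apart in these columns.

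The first question was how much of the family the hippocampus held. All 3 members were detected, but at low levels and below the median of the detected genes. Replicate 1 had 3793934 counts on miRNA genes and replicate 2 had 2554997, so that 1 count was worth 0.264 and 0.391 counts per 1000000 (CPM). The family had 377 of these counts in replicate 1 and 405 in replicate 2. That is 99.4 CPM in replicate 1, with a 95% Wilson interval of 89.8 to 110 CPM. In replicate 2 it is 159 CPM, with an interval of 144 to 175 CPM, and the mean was 129 ± 41.8 CPM (SD, n = 2). Such intervals hold counting error alone. The counts are of reads, so any PCR copies among them would make the intervals too narrow.

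Mir148b had 236 counts in replicate 1 and 183 in replicate 2. Its level was 62.2 CPM (54.8 to 70.7) and 71.6 CPM (62.0 to 82.8) in replicates 1 and 2, a mean of 66.9 ± 6.66 CPM (SD, n = 2). The libraries lay close together, with overlapping intervals.

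Mir148a had 93 counts in replicate 1 and 170 in replicate 2. Its level was 24.5 CPM (20.01 to 30.03) and 66.5 CPM (57.3 to 77.3), a mean of 45.5 ± 29.7 CPM (SD, n = 2). Replicate 2 was high and replicate 1 low, and the intervals did not overlap.

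Mir152 had 48 counts in replicate 1 and 52 in replicate 2. Its level was 12.7 CPM (9.54 to 16.8) and 20.4 CPM (15.5 to 26.7), a mean of 16.5 ± 5.45 CPM (SD, n = 2). Here replicate 2 was again the higher, with intervals that overlapped.

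Of the 2202 genes, 426 reached 2 CPM in each library, with a median of 88.3 CPM and the middle part, from the lower to the upper quartile, at 11.6 to 1115 CPM. Mir148b ranked 225, Mir148a 246 and Mir152 299 by mean CPM, all 3 between the lower quartile and the median. Mir148b kept its place in the libraries, at 224 in replicate 1 and 221 in replicate 2. Mir148a ranked 269 in replicate 1 and 226 in replicate 2, and Mir152 ranked 316 and 277.

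**Figure D2:**
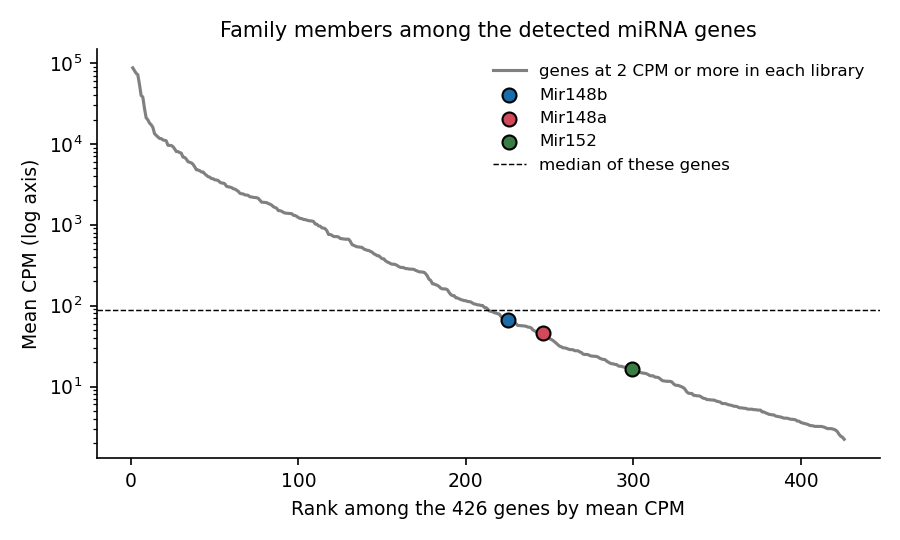
Mean CPM (log axis) against rank for the 426 genes at 2 CPM or more in each library, with the 3 members as coloured points and the median of these genes as a dashed line. The members lie below the median of 88.3 CPM, at ranks 225, 246 and 299.

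The order of the members by mean CPM was Mir148b, then Mir148a, then Mir152. Mature arms of nearly the same length allow counts per gene to be set side by side without scaling by length. How well each sequence was captured in the libraries was not measured, so the order is one of counts and not of amounts in the tissue. In 3 pairs and 2 libraries, counts of 2 members were compared with a two-sided exact binomial test, adjusted over the 6 tests, for counting error only. Mir148b was above Mir152 by 2.30 on the log2 scale (95% exact interval 1.85 to 2.78) in replicate 1 and by 1.81 (1.36 to 2.29) in replicate 2. Adjusted p of the exact test was 3.31e-30 and 8.23e-18. Mir148a was above Mir152 by 0.95 (0.44 to 1.49) in replicate 1 and by 1.71 (1.25 to 2.19) in replicate 2, with adjusted p of 0.000226 and 1.62e-15 in the exact test. So Mir152 came last in both libraries.

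Mir148b and Mir148a, neighbours in that order, were apart in replicate 1 but not in replicate 2. The log2 ratio of Mir148b over Mir148a was 1.34 (0.99 to 1.71) in replicate 1, with an adjusted p of 2.64e-15 in the exact binomial test. In replicate 2 it was 0.11 (-0.20 to 0.42), with an adjusted p of 0.523. Over the libraries this ratio was 0.72 ± 0.87 (SD, n = 2), less than the spread between replicates. Mir148b over Mir152, at 2.06 ± 0.34, and Mir148a over Mir152, at 1.33 ± 0.53 (SD, n = 2 each), were larger than theirs.

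**Figure D3:**
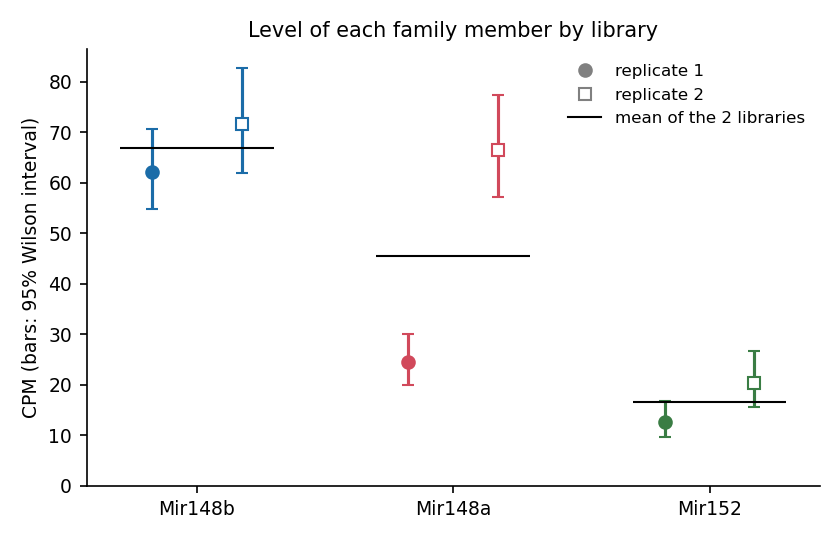
Level of each member in CPM in replicate 1 (filled circle) and replicate 2 (open square), with 95% Wilson intervals for counting error and a line at the mean of the 2 libraries. Mir148a shows the widest gap, 24.5 CPM in replicate 1 and 66.5 CPM in replicate 2, while Mir148b lies at 62.2 and 71.6 CPM.

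The second question was whether the libraries differed in the family. All 3 members had lower CPM in replicate 1 than in replicate 2, and 2 of the 3 passed a test of counting error. In an exact binomial test, two-sided and conditional on the totals of the libraries, fitted on all 507 genes with 10 counts or more in sum, 52.1% of genes passed in either direction at an adjusted p under 0.05. By direction, 25.2% of genes passed with the higher level in replicate 1 and 26.8% with the higher level in replicate 2. The 2 members that passed, Mir148a and Mir152, were both higher in replicate 2, and with 3 members in all nothing was read from that share. It is a comparison of these libraries, since there are no conditions to compare.

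The log2 ratio of replicate 1 over replicate 2 was -1.44 for Mir148a (95% exact interval -1.82 to -1.07), with an adjusted p of 7.24e-15 in the exact binomial test. Replicate 2 was therefore 2.71-fold higher. For Mir152 the log2 ratio was -0.69 (-1.28 to -0.09), with an adjusted p of 0.0375 in the exact test, which was 0.0561 when all genes with a count were tested. For Mir148b it was -0.20 (-0.49 to 0.08), with an adjusted p of 0.248 in the exact test. A ratio between the bounds of that interval, 0 included, was not told apart from the value of Mir148b at this depth. The family as a sum had a log2 ratio of -0.67 (-0.88 to -0.47).

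Ratios of this size were found in other miRNA genes too. The median log2 ratio of CPM was -0.69 for the members, beside a median log2 ratio of 0.02 for all 507 genes tested, computed on CPM + 0.5. Among 118 genes with a mean of 10 to 100 CPM, the range that holds the members, the absolute log2 ratio had a median of 0.45, with 20 genes more than 2-fold apart. Of the 118, 64 were higher in replicate 1 and 54 in replicate 2. By absolute log2 ratio Mir148a ranked 13, Mir152 34 and Mir148b 89 of the 118, counted from the largest. The coefficient of variation between the libraries beyond counting error was 0.377, from edgeR's common dispersion over genes. In an exact negative binomial test with that dispersion, 2 of the 507 genes (0.394%) passed, neither a member. The dispersion was estimated from the same 2 libraries that were compared, so the differences under test were part of it. Few genes could pass, and not passing is no sign that a member was alike in both libraries. Unadjusted p in that exact test was 0.0804 for Mir148a, 0.430 for Mir152 and 0.807 for Mir148b.

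**Figure D4:**
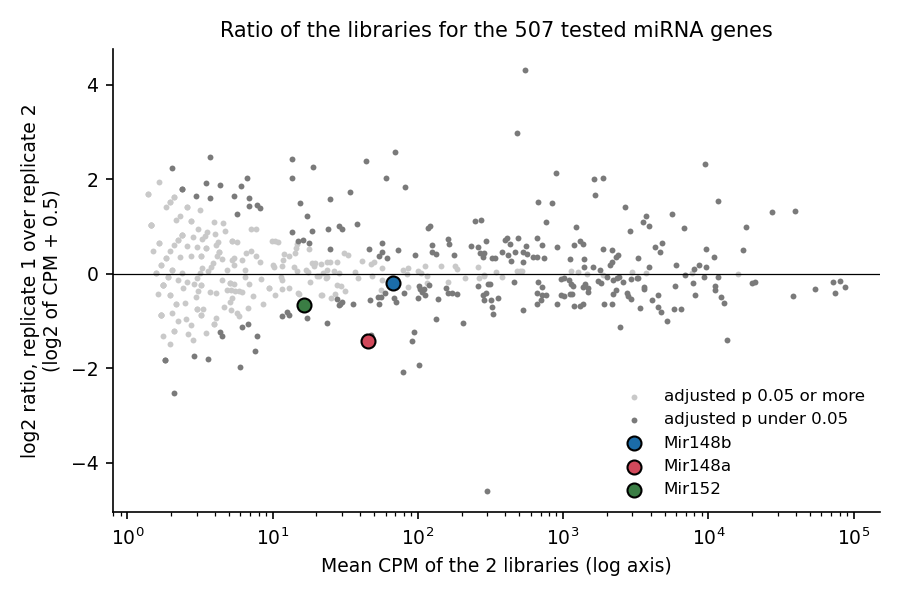
Log2 ratio of replicate 1 over replicate 2 (on CPM + 0.5) against mean CPM (log axis) for the 507 tested genes, dark grey where the adjusted p of the exact binomial test was under 0.05. The members lie below 0, Mir148a farthest, among genes that spread to either side of 0.

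The make-up of the family was compared next, since shares within it do not depend on the library totals. With 95% Wilson intervals, Mir148b took 62.6% of the family's counts in replicate 1 (57.6 to 67.3) and 45.2% in replicate 2 (40.4 to 50.05). Mir148a took 24.7% in replicate 1 (20.6 to 29.3) and 42.0% in replicate 2 (37.3 to 46.8). Mir152 took 12.7% in replicate 1 (9.74 to 16.5) and 12.8% in replicate 2 (9.93 to 16.4).

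Each member was set against the other members with a two-sided Fisher's exact test, adjusted over 3 tests. Adjusted p was 1.06e-06 for Mir148a and 1.6e-06 for Mir148b. For Mir152 the exact test gave p = 1, and the odds of its counts in replicate 1 over replicate 2 were 0.99. Mir148a thus took a smaller share and Mir148b a larger one in replicate 1, beyond counting error. With the share of Mir152 nearly the same, these are the same contrast seen from either side. The level of Mir148b itself was not higher in replicate 1, at 62.2 CPM beside 71.6 CPM in replicate 2. These tests do not hold the spread between animals or preparations, nor reads that the alignment may have given to the wrong member.

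**Figure D5:**
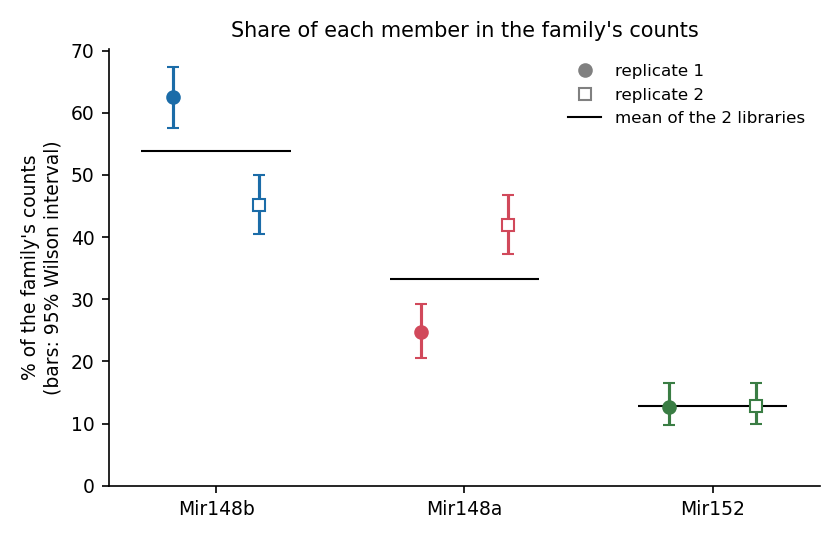
Share of each member in the family's counts, in percent, in replicate 1 (filled circle) and replicate 2 (open square), with 95% Wilson intervals and a line at the mean. Mir148b and Mir148a stand apart in replicate 1 at 62.6% and 24.7% and near each other in replicate 2 at 45.2% and 42.0%.

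The libraries also differed in other ways. In replicate 1, 41.3% of reads were unmapped and 26.3% mapped to several places, beside 20.7% and 37.5% in replicate 2. Neuronal miRNA genes summed to 63740 CPM in replicate 1 and 48650 CPM in replicate 2, with 10 of 13 listed genes detected. Of 11 tested in the exact binomial test, 5 passed as higher in replicate 1 and 4 as higher in replicate 2, so the sum does not stand for each gene. Of all genes tested, 25.2% and 26.8% passed in these directions. The neuronal genes not detected were Mir124a-1, at a mean of 2.36 CPM, and the other Mir124a copies of the list. The neuronal sum therefore says little of Mir124a. Oligodendrocyte genes summed to 4060 and 1247 CPM in replicates 1 and 2 (3 of 5 detected, Mir219b at 0), endothelial and mural genes to 14330 and 11080 CPM (3 of 4, Mir126b at 0) and myeloid genes to 1781 and 1696 CPM (5 of 6, Mir142b at 0). Choroid plexus and ciliated genes summed to 1980 and 930.7 CPM (4 of 7, Mir449b at 0), and liver and pancreas genes to 428 and 338 CPM (3 of 5, none at 0 in both libraries). By mean CPM the myeloid sum came mostly from Mir150 (1014) and Mir146 (622), with Mir142 at 50.2 and Mir223 at 5.65. Mir375, at a mean of 340 CPM, made up most of the liver and pancreas sum. Such sums rest on a few genes and do not stand for a cell type. The erythroid list, whose 3 genes in the tables were all detected, was the 1 of these 7 lists that was higher in replicate 2, as the family was, at 75.4 CPM in replicate 1 and 192 CPM in replicate 2. Within it 2 genes passed as higher in replicate 2, Mir451a (log2 ratio -1.94 on CPM + 0.5) among them, and 1 passed as higher in replicate 1, Mir486 (0.90). Genes also passed in either direction in the endothelial and mural list, 1 each way of 3 tested. In the myeloid list it was 2 each way of 5 tested. Of 3, 4 and 5 genes tested in the oligodendrocyte, choroid plexus and liver lists, 2, 3 and 3 passed as higher in replicate 1. As higher in replicate 2, 0 passed in each of these lists. The part of these differences in the values of the family was not tested. In bulk tissue, fewer cells of a type and less RNA per cell cannot be told apart.

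The miR-130 and miR-301 family has an offset seed, AGUGCAA, which shares the bases AGUGCA with CAGUGCA, shifted by a base. It is shown by its most abundant member and by Mir301, with the seed in capitals.
mmu-miR-130a-3p: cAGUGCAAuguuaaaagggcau
mmu-miR-301a-3p: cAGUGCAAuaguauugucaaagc
That seed was carried by 7 arms of RefSeq (0.403%) at bases 2 to 8, from Mir130a, Mir130b, Mir130c, Mir301, Mir6341, Mir6389 and Mir721. The family list used below differs from these carriers. It holds Mir301b, which had no arm among the 7, and leaves out Mir130c, Mir6341 and Mir6389, which had 0 counts in both libraries. The RefSeq arms searched came from 1058 genes, fewer than the 2202 counted. Having no arm among the 7 thus does not show that Mir301b lacks the seed. Mir130a, at 3418 CPM in replicate 1 and 5584 CPM in replicate 2, was far above the whole miR-148 and miR-152 family in each library. Mir130b stood at 108.9 and 128.8 CPM in replicates 1 and 2, Mir301 at 22.9 and 572 CPM and Mir301b at 1.05 and 2.35 CPM, while Mir721 had 0 counts in both libraries, which allows up to 0.791 and 1.17 CPM. Of the 5 listed genes 4 could be tested, and 3 passed the exact binomial test, all higher in replicate 2, a direction in which 26.8% of all genes passed. In the exact negative binomial test Mir301 passed (adjusted p = 0.000222), and Mir130a and Mir130b did not (adjusted p = 1 each). Their log2 ratios of replicate 1 over replicate 2 were -0.71 for Mir130a, -0.24 for Mir130b and -4.64 for Mir301.

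Genes with values most like those of the members were found by distance in log2(CPM + 0.5) over the 2 libraries, 2 for each member. For Mir148b these were Mir203, at 60.1 CPM in replicate 1 and 68.1 CPM in replicate 2 (distance 0.0875), and Mir24-1, at 64.6 and 68.1 CPM (0.0899). For Mir148a they were Snord43, which the annotation lists among miRNA genes, at 25.04 and 63.4 CPM (0.0753), and Mir362, at 27.1 and 67.7 CPM (0.147). For Mir152 they were Mir7j, at 13.2 and 20.4 CPM (0.0567), and Mir9-1, at 11.6 and 22.7 CPM (0.196). Likeness over 2 libraries says little beyond a like level.

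No member had an abundant miRNA gene beside it. The nearest miRNA gene to Mir148b was Mir6963, 65.2 kb away and with 0 counts in both libraries. Gm22914, 352 kb from Mir148a, also had 0 counts in both libraries. Mir8103, 213 kb from Mir152, had 1 count in each library.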

How the data were processed

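MicroRNA sequencing of total RNA was deposited as 1 table per replicate. The deposited counts are raw reads per miRNA gene, not normalized, on mm10 with GENCODE M21, per the file headers of the accompanying text. What aligner, counting tool, trimming and read filters were used was not given in the sources used here. Tables have 3 count columns, and the one for the gene's strand was used. The 4 rows of reads given to no gene stayed out of totals, and held 72.5% and 64.7% of reads in replicates 1 and 2.

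All 2202 identifiers matched the annotation, and all 3 members matched RefSeq (GRCm38.p6) by symbol. CPM are counts per 1000000 assigned counts, and ratios are of CPM. Tests were exact binomial tests with Benjamini-Hochberg adjustment over the 507 genes with 10 counts in sum (threshold 0.05) and Fisher's exact tests of shares. With 1 library against 1, edgeR's quasi-likelihood test has no residual degrees of freedom, so edgeR 4.0.16 (R 4.3.3) gave TMM factors, an intercept-only common dispersion and an exact negative binomial test. DESeq2 1.42.0 gave size factors, and ViennaRNA 2.7.2 the folds. Python 3.11.15, scipy 1.17.1, numpy 2.4.6, pandas 2.3.3 and matplotlib 3.10.9 did the rest. The binomial test was run on simulated counts with counting error alone, scaled by the genes set as unchanged. That does not give its error rate in these libraries, which spread beyond counting error. At these depths 0 counts allow up to 0.791 and 1.17 CPM.

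Members and lists were chosen with earlier results of these data known. Named beside the members are the 2 genes nearest in level to each, all genes with the seed of a member's 3p arm, the miR-130 and miR-301 list and the nearest miRNA gene of each. Marker lists are neuronal, oligodendrocyte, endothelial and mural, erythroid, myeloid, choroid plexus and ciliated, and liver and pancreas. The erythroid gene Mir486b was not analysed here. The 2 libraries from their labels were 1 group. Alternatives were other totals, the column that ignores strand, pseudocounts, filters, the negative binomial test, stretch lengths and each replicate left out.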

Additional observations from a re-analysis of the deposited data

How the results depend on the processing

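No result reversed under the alternatives run. Scaling moved levels by construction: without the 10 highest genes in the totals the mean was 138 CPM for Mir148b, 95.2 for Mir148a and 34.3 for Mir152, and per 1000000 reads of any kind 21.2, 15.1 and 5.33. With all reads as the denominator the log2 ratio of Mir148b, replicate 1 over replicate 2, was -0.56 (adjusted p = 0.000218 in the exact binomial test), past the threshold. TMM totals and DESeq2 size factors left the calls of all 3 members as they were. Pseudocounts of 0.1 and 5 CPM change the size of a log2 ratio and cannot change these calls, which rest on counts, and the column that ignores strand holds the same member counts, so it cannot change shares or pair ratios. The exact negative binomial test ended the calls of Mir148a (-1.44) and Mir152 (-0.69), with an adjusted p of 1 for each, and brought the number of genes that differ to 2, against 264 of 507, with 23 at an unadjusted p under 0.05. That test allows for the spread between libraries, which the binomial test does not, but its dispersion came from these same 2 libraries. The differences tested were thus part of that spread, and few genes could pass. Testing all genes with a count ended the call of Mir152 (-0.69, adjusted p = 0.0561 in the exact test), where more genes are adjusted over. Leaving out a replicate of 2 gives the value of the other library and is no sign of stability. It gave 62.2 to 71.6 CPM for Mir148b, 24.5 to 66.5 for Mir148a and 12.7 to 20.4 for Mir152, and shares of 45.2% to 62.6%, 24.7% to 42.0% and 12.7% to 12.8%. A ratio of 2 libraries cannot be had without one of them. No hairpin shared 20, 18 or 16 bases with a member's. No paired analysis was possible because the series has 1 group. With 48 to 236 counts a member in each library, counting error limits what can be seen in Mir152 first.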
